A study of Oryza sativa Japonica Group with 24 samples.

Results

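The morning change of gene expression in rice anthers under LD conditions was examined by setting LD 12:00 against LD 08:00. All 4 libraries of these groups were used, out of 24 in the series, and the members are all loci with enough counts for a test in them, 23099 of the 55986 loci counted. Both groups are whole anthers at the mitosis I stage of wild-type *japonica* rice, variety 9522, grown in paddy fields under natural daylight of about 14 h, and they differ in sampling time, 12:00 or 08:00 on the clock. Each has 2 biological replicates. The series sampled anthers every 4 h at 6 time points under LD and under SD, in which black cloth placed over plants late in the day cut daylight to 12 h. SD 12:00 and SD 08:00, LD 16:00 and LD 04:00 were used for comparison, each with 2 replicates. The design text deposited with the series gives the 14 h of LD to darkness, whereas here the day length follows the methods of the study. Because the anther holds wall layers and pollen, fewer cells of a type and less RNA per cell cannot be told apart.

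The plant circadian clock is a set of genes that repress and activate each other in turn through the day. *CCA1* and *LHY*, which encode MYB-related repressors, are known from *Arabidopsis* to be highest around dawn. Pseudo-response regulators (*PRR* genes) follow them through the day, and *TOC1* (*PRR1*), *GI*, *FKF1*, and *LUX* reach their highest level in the afternoon or evening. In rice, *OsGI* and *OsFKF1* belong to the pathway that measures day length for flowering, and late anthers import sugars and water, remodel walls, and load pollen with starch and lipid.

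Total counts were 19473986 and 23293969 in LD 12:00 replicates 1 and 2, and 20237790 and 19447104 in LD 08:00 replicates 1 and 2. Levels below are in CPM, which relates a gene's count to the total of its library, with totals adjusted by TMM (trimmed mean of M values) over all 24 libraries, and are compared between samples, not between genes. The LD 12:00 replicates diverged in one direction. Of 13625 genes with at least 10 CPM in either replicate, 106 were at least 4-fold higher in replicate 2 and 1 was at least 4-fold higher in replicate 1, against 9 and 9 of 13786 genes in LD 08:00. Such one-sided divergence was also found in LD 16:00 (212 genes higher in replicate 2 and 15 in replicate 1), SD 00:00 (192 and 13), LD 00:00 (152 and 3), and, towards replicate 1, SD 04:00 (154 higher in replicate 1 and 1 in replicate 2). Counts of called genes are therefore also given without LD 12:00 replicate 2. In SD the column totals kept a nearly constant ratio to the numbers of mapped reads that the study lists for the same labels, but in LD, including LD 12:00 and LD 08:00, they did not, and some LD totals were the larger of the pair. Each LD column total instead kept such a ratio to the mapped reads listed for the same replicate at the LD time 4 h earlier. By that listing, the columns compared here would be LD 08:00 and LD 04:00. The totals cannot tell which labels are right, and this was not tested. Every LD value below therefore belongs to the column labelled with that time.

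Cell type markers were compared before the results. The 5 late pollen markers (*OsMATL*, *OsMADS63*, *OsMADS68*, and 2 pollen allergen genes) summed to between 1166 and 1491 CPM at LD 12:00 and between 964 and 1679 CPM at LD 08:00, and their log2 fold changes were between -0.03 and 0.09. No late pollen marker passed the test, and the groups overlapped. The 4 markers of tapetum and anther wall summed to between 319 and 337 CPM at LD 12:00 and between 290 and 405 CPM at LD 08:00. Nearly all of this came from *WDA1*, a wax synthesis gene of the anther wall, while *OsLAP6*, a polyketide synthase gene of the tapetum, differed within LD 08:00 (25.7 CPM in replicate 1 and 0.635 CPM in replicate 2) more than between the groups (13.4 and 3.60 CPM at LD 12:00). *OsABCG15* and *HTH1*, further wall lipid genes, were at 2.40 CPM or below in all 4 libraries. The meiosis markers summed to between 375 and 381 CPM at LD 12:00, against 402 to 510 CPM at LD 08:00.

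*OsCCA1/OsLHY*, the morning gene of the clock (LOC_Os08g06110), fell the most of the called genes with at least 10 CPM and a described annotation. It had 78.2 and 86.8 CPM at LD 12:00, against 842 and 739 CPM at LD 08:00, a log2 fold change of -3.25 ± 0.23 (SE, adjusted p = 0.000671, edgeR quasi-likelihood test). Both noon libraries were far below both morning libraries. *OsFKF1*, which encodes a blue-light F-box protein (LOC_Os11g34460), moved the other way, with 48.8 and 77.6 CPM at LD 12:00 against 2.56 and 1.67 CPM at LD 08:00 (log2 fold change 4.90 ± 0.31, adjusted p = 0.000512).

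*OsGI*, the rice *GIGANTEA* gene (LOC_Os01g08700), had 608 and 711 CPM at LD 12:00, against 168 and 160 CPM at LD 08:00. Its log2 fold change was 2.02 ± 0.22 (adjusted p = 0.00303). *OsTOC1/OsPRR1*, the evening member of the pseudo-response regulators (LOC_Os02g40510), had 47.9 and 37.2 CPM at LD 12:00, against 11.6 and 9.87 CPM at LD 08:00 (log2 fold change 2.00 ± 0.20, adjusted p = 0.0022). These 3 up-regulated genes and *OsCCA1/OsLHY* were the 4 called of the 12 genes in the rhythm list of the study, and each of the 4 kept its call without any one of the 4 libraries. Over all genes tested, 5.78% were called, as described below.

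The daytime pseudo-response regulators were higher at noon in both libraries but were not called at 2-fold. *OsPRR73* had 380 and 361 CPM at LD 12:00 against 269 and 254 CPM at LD 08:00 (log2 fold change 0.51 ± 0.19, adjusted p = 0.138). *OsPRR37*, a repressor of flowering under long days, had 103 and 108 CPM against 71.5 and 68.3 CPM (0.61 ± 0.15, adjusted p = 0.0499). *OsPRR95* had 55.7 and 76.2 CPM at LD 12:00 against 42.4 and 42.0 CPM at LD 08:00 (0.66 ± 0.18, adjusted p = 0.0629). Every difference was below the 2-fold threshold, and *OsPRR73* and *OsPRR95* also missed the adjusted p threshold.

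The remaining rhythm genes did not pass the test. *OsLUX*, a gene of the evening complex, was scarce, with 1.35 and 2.61 CPM at LD 12:00 against 0.972 and 0.519 CPM at LD 08:00 (log2 fold change 1.40 ± 0.52, adjusted p = 0.131). *OsELF3*, the scaffold of that complex, had 39.3 and 42.7 CPM at LD 12:00 against 44.2 and 37.0 CPM at LD 08:00, and the groups overlapped. The paralogous blue-light receptor genes *OsZTL1* and *OsZTL2* had log2 fold changes of 0.07 ± 0.16 and -0.39 ± 0.17. *OsCAB1R*, a chlorophyll a/b binding protein gene, had 230 and 315 CPM at LD 12:00 against 484 and 563 CPM at LD 08:00. At -0.93 ± 0.23 and adjusted p = 0.0507 it missed both thresholds, and without LD 12:00 replicate 2 it was called (-1.18, adjusted p = 0.0235).

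**Figure D1:**
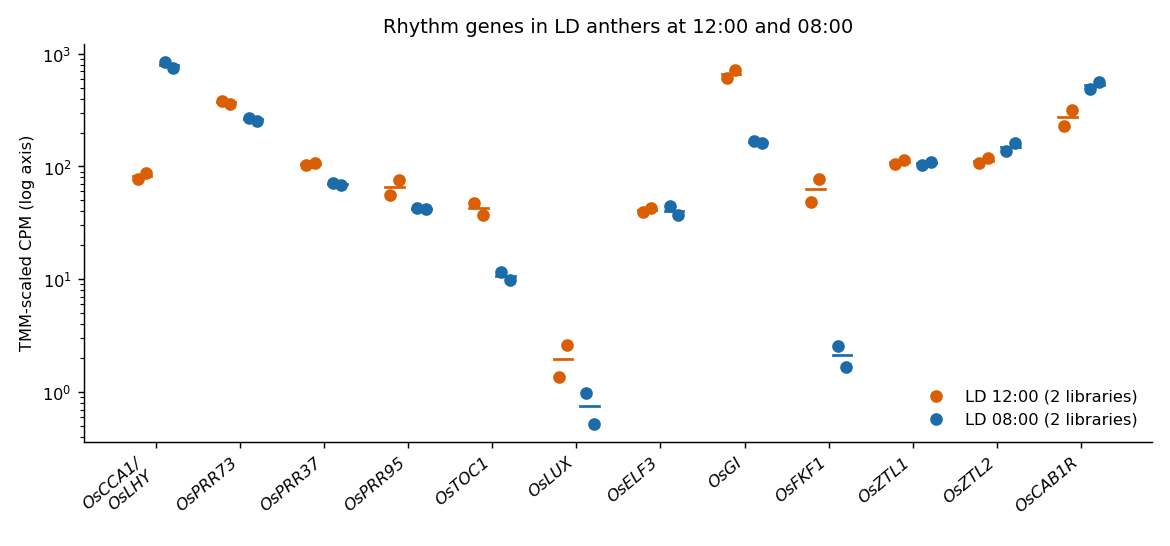
Level of the 12 rhythm genes in the 4 LD morning libraries, in TMM-scaled CPM on a log axis. Points are libraries and bars are group means of 2. *OsCCA1/OsLHY* lies at 78.2 and 86.8 CPM at 12:00, against 842 and 739 CPM at 08:00, *OsGI*, *OsTOC1*, and *OsFKF1* lie higher at 12:00, and the points of *OsELF3* and *OsZTL1* overlap.

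In the LD libraries outside the comparison, the same 4 genes followed the day. *OsCCA1/OsLHY* had 9.27 and 15.2 CPM at LD 16:00 against 976 and 881 CPM at LD 04:00 (log2 fold change -6.24 ± 0.32, adjusted p = 0.0053). *OsGI* had 1087 and 1104 CPM at LD 16:00 against 29.2 and 36.5 CPM at LD 04:00, and *OsFKF1* had 119 and 117 CPM against 1.56 and 0.835 CPM. The noon levels of all 3 genes, and of *OsTOC1/OsPRR1* (67.7 and 77.6 CPM at LD 16:00), thus lay between those at 08:00 and 16:00. *OsLUX*, which was scarce in the morning, reached 27.5 and 30.3 CPM at LD 16:00 against 0.854 and 0.786 CPM at LD 04:00. Of the 12 rhythm genes, 8 were up-regulated and 1 was down-regulated at LD 16:00 relative to LD 04:00, where 0.869% and 1.24% of all genes tested were called higher and lower. All 9 calls were lost without either LD 04:00 library, when edgeR called 0 genes in the whole comparison (2395 and 3191 with an unadjusted p under 0.05, and 1027 called by DESeq2 on all 4 libraries).

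**Figure D2:**
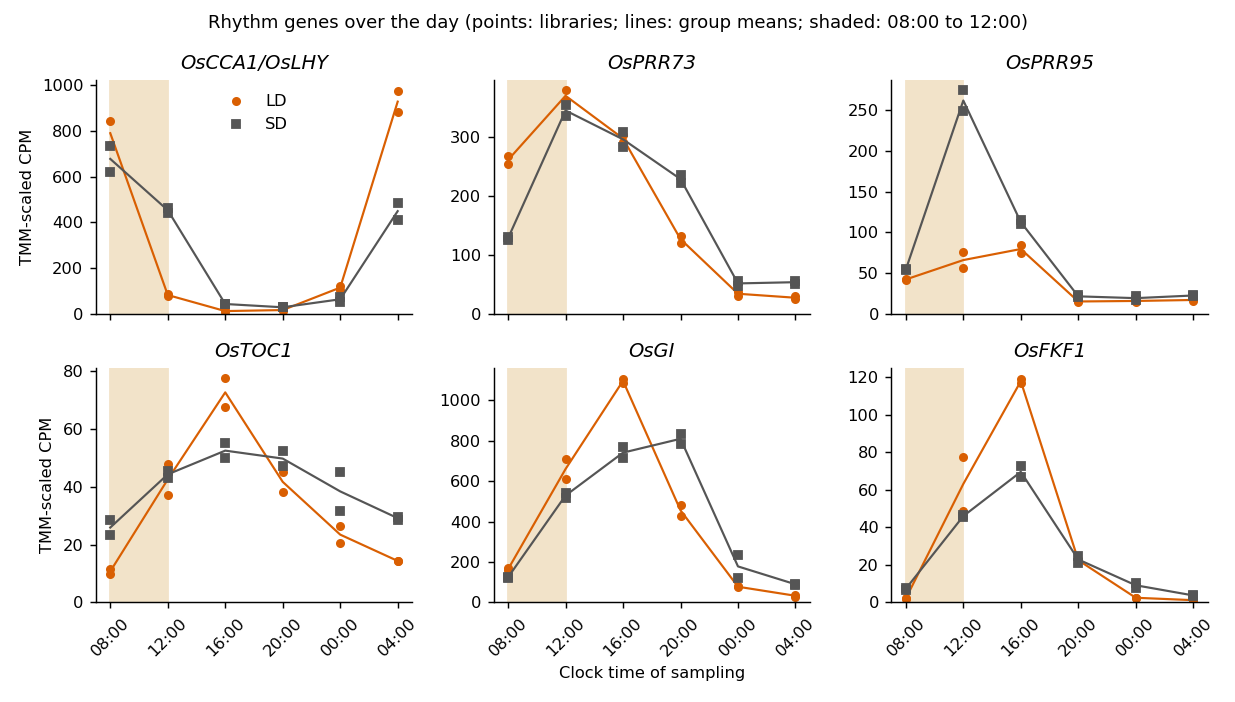
Level of 6 rhythm genes at the 6 sampling times in LD (circles) and SD (squares), in TMM-scaled CPM, with 2 libraries per group as points and group means as lines. The shaded span is 08:00 to 12:00, in which *OsCCA1/OsLHY* fell to 78.2 and 86.8 CPM in LD while SD 12:00 libraries were at 442 and 465 CPM.

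Across all genes tested, 1335 (5.78%) were called at LD 12:00 against LD 08:00 (adjusted p below 0.05 and a change of 2-fold or more). Of these, 627 were up-regulated (2.71%) and 708 were down-regulated (3.07%). The median of all log2 fold changes was 0.02. Up-regulated genes had the larger changes in the fit, where 321 of 627 were at least 4-fold higher and 175 at least 8-fold higher. Of the 708 down-regulated genes 152 were at least 4-fold lower and 36 at least 8-fold lower. The median absolute log2 fold change was 2.03 for up-regulated and 1.42 for down-regulated genes. After adding 0.5 CPM, which shrinks changes of scarce genes, the median log2 ratios of the group means were nearer in size, 1.63 and -1.29. With library totals in place of TMM, which lowered the median of all genes to -0.10, 641 genes were up-regulated and 1125 down-regulated. A test against a fold change of 2 called 178 higher and 65 lower.

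The calls depended on single libraries. Without LD 12:00 replicate 2, 700 genes were called higher (2.94%) and 943 lower (3.96%), together 6.90% of those tested, and 508 of the 627 up-regulated and 599 of the 708 down-regulated genes were among them. Without LD 12:00 replicate 1, 2051 genes were called. Without LD 08:00 replicate 1 only 389 genes were called, and without LD 08:00 replicate 2 only 272, although 1196 and 1255 of the 1335 genes kept a change of at least 2-fold in the same direction. The median change over the LD 08:00 mean among the 627 up-regulated genes was 1.52 in replicate 1 and 1.62 in replicate 2 on the log2 scale. Among the 708 down-regulated genes it was -1.31 in replicate 1 and -1.32 in replicate 2. In 47 up-regulated genes the level in replicate 2 was at least 4 times that in replicate 1, and the reverse held for 0 of them.

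**Figure D3:**
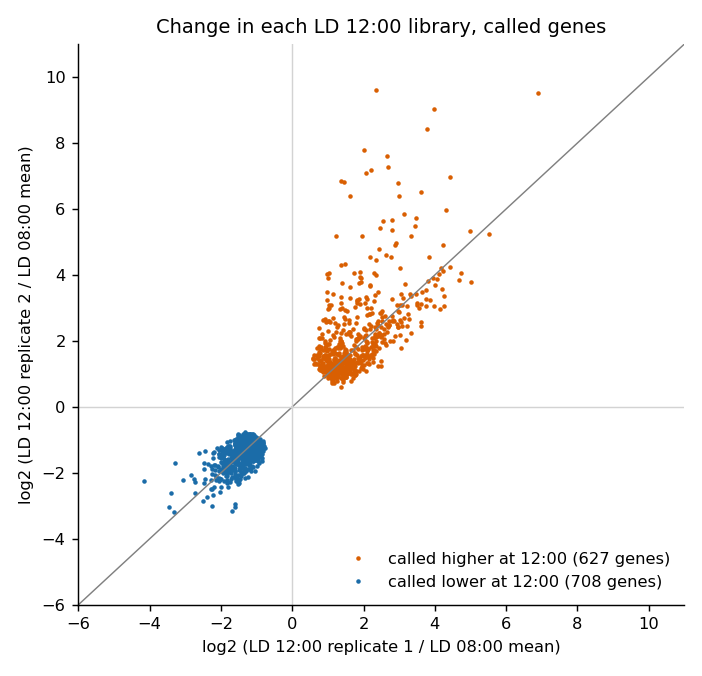
Change of each of the 1335 called genes in LD 12:00 replicate 1 (x axis) and replicate 2 (y axis), as the log2 ratio to the LD 08:00 mean after adding 0.5 CPM. All points lie in the quadrants of equal sign, and 47 up-regulated genes lie far above the diagonal because replicate 2 was at least 4 times higher.

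Annotations came from the sheets of the study, which list genes that differed between SD and LD in these samples, so the annotated genes are no independent sample of the genome. Of the 627 up-regulated genes 53 (8.45%) were annotated, and of the 708 down-regulated genes 221 (31.2%) were annotated. Among annotated genes tested, 53 of 3721 (1.42%) were called higher and 221 (5.94%) lower. Most of the up-regulated genes thus have no name here, and the functions given below describe only the annotated ones. The largest rise was that of the unannotated LOC_Os04g36750 (log2 fold change 11.82), with 2.36 CPM in LD 12:00 replicate 1 and 435 CPM in replicate 2. The most abundant up-regulated gene was LOC_Os08g39140, also unannotated. It had 4656 and 8691 CPM at LD 12:00 against 1140 and 1038 CPM at LD 08:00 (log2 fold change 2.63 ± 0.38, adjusted p = 0.00864). LOC_Os03g16860 had 4321 and 6848 CPM against 1308 and 1341 CPM (2.09 ± 0.34, adjusted p = 0.0119). Neither kept its call without LD 08:00 replicate 1 or without LD 08:00 replicate 2. At the other end, the unannotated LOC_Os02g03960 had 653 and 672 CPM at LD 12:00 against 1586 and 1186 CPM at LD 08:00 (-1.05 ± 0.26, adjusted p = 0.0471), a call that was lost without any one of the 4 libraries.

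The annotated genes most up-regulated at noon were of mixed function. *OsTPP7*, a trehalose-6-phosphate phosphatase gene (LOC_Os09g20390), had 80.8 and 33.9 CPM at LD 12:00 against 2.56 and 1.44 CPM at LD 08:00 (log2 fold change 4.84 ± 0.47, adjusted p = 0.00215). LOC_Os02g11070, a 3-ketoacyl-CoA synthase gene of very-long-chain fatty acid elongation, had 25 and 21.6 CPM against 1.38 and 1.44 CPM (4.06 ± 0.23, adjusted p = 0.000452). LOC_Os01g67820, which encodes an exo70 subunit of the exocyst that tethers secretory vesicles, had 21.6 and 18.8 CPM against 0.665 and 0.981 CPM (4.63 ± 0.28, adjusted p = 0.000452). In these genes each noon library was at least 10 times the higher morning library.

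LOC_Os04g48290, a MATE efflux family gene, had 12.6 and 12.8 CPM at LD 12:00 against 0.307 and 0.577 CPM at LD 08:00 (log2 fold change 4.86 ± 0.33). LOC_Os06g48160, a glycosyl hydrolase family 16 gene, had 96.4 and 61.8 CPM against 6.34 and 3.17 CPM (4.05 ± 0.35). LOC_Os03g05750, with a heavy-metal-associated domain, had 106 and 101 CPM against 15.9 and 10.2 CPM (3.0 ± 0.23). The adjusted p of these 3 genes was 0.000609, 0.00149, and 0.000896.

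The other members of the 12 highest annotated genes were *OsFKF1*, a plasma membrane calcium-transporting ATPase gene (LOC_Os10g28240, log2 fold change 3.0), a glycerol-3-phosphate dehydrogenase gene (LOC_Os05g41590, 2.87), a further heavy-metal-associated domain gene (LOC_Os02g37300, 2.61), an NAD-dependent epimerase gene (LOC_Os07g40986, 2.17), and a calmodulin-binding heat-shock protein gene (LOC_Os06g14490, 2.08). All 12 were called without LD 12:00 replicate 2. Without LD 08:00 replicate 1, 9 of the 12 were called, and without LD 08:00 replicate 2, 8 were called. The ATPase, the epimerase, and the calmodulin-binding gene lost the call in both, and *OsTPP7* in the second.

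The annotated genes most down-regulated after *OsCCA1/OsLHY* were also of mixed function. LOC_Os10g02840 and LOC_Os10g02880, which encode O-methyltransferases with close locus numbers, had 5.33 and 4.12 CPM and 4.16 and 4.38 CPM at LD 12:00, against 24.0 and 41.3 CPM and 19.7 and 24.5 CPM at LD 08:00. Their log2 fold changes were -2.77 ± 0.29 and -2.35 ± 0.21 (adjusted p = 0.00292 and 0.00165), and reads shared between close copies would affect both. *D11* (LOC_Os04g39430), a cytochrome P450 gene of brassinosteroid synthesis, had 2.30 and 1.72 CPM at LD 12:00 against 10.5 and 9.52 CPM at LD 08:00 (-2.30 ± 0.27, adjusted p = 0.00377). In all 3 genes the groups were well separated.

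LOC_Os04g16680, a fructose-1,6-bisphosphatase gene, had 10.3 and 13.7 CPM at LD 12:00 against 39.7 and 55.3 CPM at LD 08:00 (log2 fold change -1.97 ± 0.22, adjusted p = 0.00362). *OsAld-Y* (LOC_Os06g40640), a fructose-bisphosphate aldolase gene, had 4.21 and 3.03 CPM against 13.1 and 16.5 CPM (-2.02 ± 0.25, adjusted p = 0.00506). LOC_Os06g40890, a polygalacturonase gene of the anther list, had 18.9 and 20.3 CPM against 47.7 and 91.7 CPM (-1.81 ± 0.28, adjusted p = 0.0104). These enzymes act on hexose phosphates and on pectin. The others of the 12 were a MATE efflux gene (LOC_Os03g62270, -2.29), a protein kinase gene (LOC_Os03g28300, -2.24), the beta-glucosidase gene *Os5bglu19* (LOC_Os05g30250, -1.82), a MYB gene (LOC_Os11g45740, -1.82), and a heavy-metal-associated domain gene (LOC_Os03g22490, -1.82). All 12 kept the call without either LD 12:00 library, 11 without LD 08:00 replicate 1 (the MYB gene lost it), and 8 without LD 08:00 replicate 2, when *OsAld-Y*, *Os5bglu19*, the MYB gene, and LOC_Os03g22490 lost it.

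Gene lists were then counted, beside 2.71% called higher and 3.07% called lower over all genes. Among the 3721 annotated genes tested, 1.42% were called higher and 5.94% lower, and the median was -0.15. A log2 fold change below 0 was found in 11233 of all 23099 genes and in 2234 of the annotated genes. The transport, carbohydrate, lipid, and anther lists were picked by the study from genes that differed between SD and LD in these samples, and the word lists were searched within its annotations, so the counts describe these members. Of 632 transport genes tested, 15 were up-regulated and 54 (8.54%) down-regulated, with a median log2 fold change of -0.25. Without LD 12:00 replicate 2 the counts were 19 and 69 and the median -0.27. Of 403 carbohydrate genes 10 were up-regulated and 25 down-regulated (median -0.12), and of 214 lipid genes 8 and 15 (median -0.16). Of 42 anther genes tested, out of 51, 0 were up-regulated and 3 down-regulated, and the median was -0.56. The anther list gave 2 higher and 9 lower without LD 12:00 replicate 2.

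Among genes of water and ion movement, 19 of 22 aquaporin genes and 24 of 28 potassium transporter and channel genes had a log2 fold change below 0. For all annotated genes tested the count was 2234 of 3721. Of the aquaporin genes 3 were down-regulated and 0 up-regulated (median -0.52). *OsPIP1;1* (LOC_Os02g44630), a plasma membrane water channel gene, had 256 and 315 CPM at LD 12:00 against 709 and 573 CPM at LD 08:00 (log2 fold change -1.16 ± 0.23, adjusted p = 0.0261), a call lost without either LD 08:00 library or without LD 12:00 replicate 1. Without LD 12:00 replicate 2, 7 aquaporin genes were called lower. Of the potassium genes 5 were down-regulated and 0 up-regulated (median -0.55). *OsGORK* (LOC_Os06g14030), an outward-rectifying potassium channel gene, had 3.87 and 3.60 CPM at LD 12:00 against 11.2 and 13.8 CPM at LD 08:00 (-1.72 ± 0.23, adjusted p = 0.00604). *OsHAK1* (LOC_Os04g32920), a high-affinity potassium transporter gene, had 48.8 and 39.8 CPM against 118 and 72.4 CPM (-1.09 ± 0.25, adjusted p = 0.0366). *OsGORK* lost its call without LD 08:00 replicate 2, and *OsHAK1* without LD 08:00 replicate 1 or LD 12:00 replicate 2.

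Of 14 sugar transporter genes, 2 were down-regulated and 0 up-regulated (median -0.43). *OsSUT3* (LOC_Os10g26470), a sucrose transporter gene, had 24.9 and 27 CPM at LD 12:00 against 45.6 and 90.4 CPM at LD 08:00 (log2 fold change -1.37 ± 0.29, adjusted p = 0.0287). *OsMST1* (LOC_Os04g37980), a monosaccharide transporter gene, had 3.76 and 3.08 CPM against 9.11 and 8.25 CPM (-1.33 ± 0.25, adjusted p = 0.0198). Within each gene the noon libraries were both lower than the morning libraries. The late pollen markers, which were higher in LD 08:00 replicate 2 (1679 CPM) than in replicate 1 (964 CPM), moved with the LD 08:00 spread of *OsSUT3*, of the polygalacturonase gene LOC_Os06g40890, and of the GDSL lipase gene LOC_Os03g38390, and their part in these changes was not tested. *OsSUT3* was not called without LD 08:00 replicate 2, and *OsMST1* without either LD 08:00 library.

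The sugar and starch enzymes moved little as lists. Of 16 sucrose and hexose enzymes 1 was down-regulated (median 0.17), the cell-wall invertase gene *GIF1/OsCIN2* (LOC_Os04g33740), which had 84.4 and 97.8 CPM at LD 12:00 against 231 and 194 CPM at LD 08:00 (log2 fold change -1.21 ± 0.19, adjusted p = 0.0114). Of 25 starch and amylase genes 1 was down-regulated (median 0.08), the beta-amylase gene LOC_Os10g41550, with 10.1 and 9.08 CPM against 26.8 and 24.6 CPM (-1.41 ± 0.18, adjusted p = 0.00538). Both lost the call without LD 08:00 replicate 1. *OsUgp1*, a UDP-glucose pyrophosphorylase gene, had 369 and 408 CPM at LD 12:00 against 335 and 318 CPM at LD 08:00 and did not pass the test (0.27 ± 0.20).

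Lipid-binding and wall-modifying genes were counted next. Of 38 lipid transfer protein genes tested, out of 47, 10 were down-regulated and 0 up-regulated (26.3% and 0%), with a median of -0.69, and 34 of the 38 were below 0. *LTPL83* (LOC_Os03g58940) had 74.9 and 71.6 CPM at LD 12:00 against 235 and 180 CPM at LD 08:00 (log2 fold change -1.49 ± 0.20, adjusted p = 0.00617), and kept its call without any one library. *LTPL158*, *LTPL74*, and *LTPL129* had log2 fold changes of -2.17, -1.72, and -1.60, and each lost its call without either LD 08:00 library. Without LD 12:00 replicate 2, 9 of the list were called lower.

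Of 35 polygalacturonase and pectinesterase genes, which act on pectin, 7 were down-regulated and 0 up-regulated (median -0.58). Of 33 expansin and xyloglucan enzyme genes, which loosen walls, 6 were down-regulated and 1 up-regulated (median -0.63). The expansin gene LOC_Os10g40710 had 26.4 and 37.6 CPM at LD 12:00 against 97.9 and 80.5 CPM at LD 08:00 (log2 fold change -1.47 ± 0.21, adjusted p = 0.00771). The 1 up-regulated gene was LOC_Os06g48160, described above. Of 59 GDSL lipase genes 6 were down-regulated and 0 up-regulated (median -0.33), with LOC_Os03g38390 at 15.0 and 12.3 CPM at LD 12:00 against 26.9 and 47.9 CPM at LD 08:00 (-1.44 ± 0.27, adjusted p = 0.0209). The expansin gene lost its call without LD 08:00 replicate 1 and the lipase gene without LD 08:00 replicate 2.

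Among hormone genes, 2 of 11 *Aux/IAA* and *SAUR* genes of the auxin response were down-regulated (median -0.55). *OsIAA1* (LOC_Os01g08320) had 54.1 and 64.3 CPM at LD 12:00 against 143 and 123 CPM at LD 08:00 (log2 fold change -1.15 ± 0.18, adjusted p = 0.0101), and *OsSAUR10* (LOC_Os02g30810) had 3.31 and 5.53 CPM against 11.7 and 16.8 CPM (-1.67 ± 0.30, adjusted p = 0.0187). Both were lower in each noon library. *OsIAA1* lost its call without LD 08:00 replicate 1, and *OsSAUR10* without either LD 08:00 library. Of 12 gibberellin genes tested 1 was down-regulated (median -0.67), LOC_Os03g15270 of the GID1L2 receptor type, at -1.03 ± 0.19, which lost its call without either LD 08:00 library or LD 12:00 replicate 2. *OsGA20ox3*, a gibberellin 20-oxidase gene, and *DAO*, an auxin oxidation gene whose locus is annotated as a gibberellin 20-oxidase, did not pass the test (0.09 ± 0.24 and 0.05 ± 0.20).

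Regulatory genes were counted as well. Of 30 hub transcription factor genes of the study 1 was called, a MYB gene (LOC_Os01g50720) with 24.5 and 20.4 CPM at LD 12:00 against 7.37 and 3.92 CPM at LD 08:00 (log2 fold change 2.00 ± 0.30, adjusted p = 0.00965), which was not called without LD 08:00 replicate 2. *CSA*, a MYB regulator of sugar partitioning in the anther, had 41.8 and 22.4 CPM at LD 12:00 against 41.4 and 33.6 CPM at LD 08:00, and the groups overlapped (-0.21 ± 0.28). The 100 genes that the study listed as *CSA* partners and the 100 *OsUgp1* partners held 0 genes called in edgeR and 0 in DESeq2. In each list 1 gene had an unadjusted p under 0.05 in edgeR, against 6334 of 23099 over all genes tested. The medians were 0.09 and 0.10. The study chose these partners by co-expression with the 2 genes in these same samples, so they are no independent readout. At SD 12:00 against SD 08:00, 65 of 92 *CSA* partners and 69 of 97 *OsUgp1* partners were called lower, beside 5.75% of all genes. Their medians there were -2.48 and -2.77. In the defence and signalling genes, *OsPAD4* (LOC_Os11g09010), a homologue of an *Arabidopsis* immunity gene with a lipase-like domain, had 96.4 and 91.5 CPM at LD 12:00 against 23.8 and 21.7 CPM at LD 08:00 (2.06 ± 0.15, adjusted p = 0.000819) and kept its call without any one library.

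Lists of protein-folding genes, ribosomal protein genes, and other families were counted last. Of 16 DnaJ and heat shock protein genes with an annotation, 1 was up-regulated (LOC_Os06g14490). Members of these families without an annotation here were not counted, and 574 of the up-regulated genes had none. The list therefore does not describe heat shock genes as a whole. The median was 0.50, and 13 were above 0, against 1487 of 3721 annotated genes tested. Without LD 12:00 replicate 2 the median was 0.36. Of 16 ribosomal protein genes, 11 histone genes, 12 protein phosphatase 2C genes, 6 cell cycle genes, 8 MADS-box genes, and 17 pollen allergen and Ole e I genes, 0 were called in each list in edgeR, and the medians lay between -0.16 and 0.11. Over these 6 lists DESeq2 called 1 gene, a histone gene, lower. In edgeR 17 of 70 genes had an unadjusted p under 0.05, against 6334 of 23099 over all genes tested. Without LD 12:00 replicate 2 the histone median was -0.50 and 1 MADS-box gene was called lower. Lists with a median below -0.30 kept a negative median with RLE size factors, with library totals, and without LD 12:00 replicate 2.

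**Figure D4:**
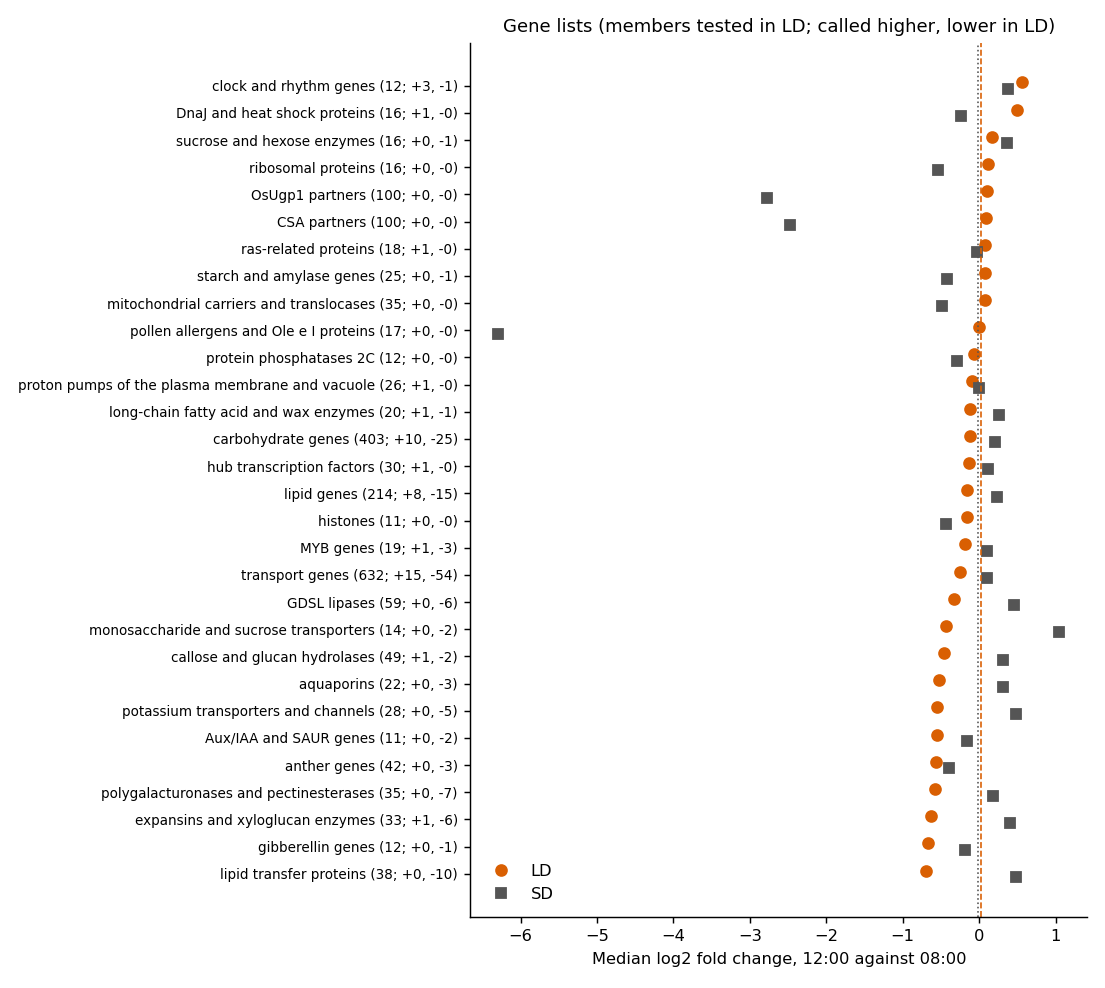
Median log2 fold change at 12:00 against 08:00 of gene lists with at least 9 members tested in each photoperiod, in LD (circles) and SD (squares), with the median over all genes as a dashed line for LD and a dotted line for SD. In LD the lipid transfer protein, gibberellin, expansin, and pectin lists lie lowest, between -0.69 and -0.58, and the pollen allergen list is at 0 in LD and at -6.29 in SD.

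The genes called in the morning were followed in LD libraries that the comparison did not use. At LD 16:00 against LD 04:00, 492 of 23355 genes were called (2.11%). Of the 708 genes down-regulated at LD 12:00, 697 were tested there, and 144 (20.7%) were down-regulated and 1 (0.143%) was up-regulated, beside 1.27% and 0.885% of all morning genes tested in both. Their median log2 fold change was -0.81. Of the 627 genes up-regulated at LD 12:00, 550 were tested, and 64 (11.6%) were up-regulated and 4 (0.727%) down-regulated, with a median of 0.14. The calls behind these shares needed both LD 04:00 libraries in edgeR. The changes depended on them less. Without LD 04:00 replicate 1 or 2, 473 and 481 of the 492 called genes kept a change of at least 2-fold in the same direction.

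Among the 4 LD times outside the comparison, 497 of the 708 down-regulated genes (70.2%) had their highest mean at 04:00, against 27.2% of all genes tested, and 30 (4.24%) had it at 16:00, against 24.9%. Of the 627 up-regulated genes 250 (39.9%) had it at 16:00 and 190 (30.3%) at 04:00. In the SD libraries the same 708 genes were highest at 04:00 in 22.3% of cases and at 16:00 in 42.4%, against 30.1% and 38.0% of all genes tested. The distribution of the down-regulated genes thus was farther from that of all genes in LD than in SD. The summed late pollen markers were between 268 and 731 CPM at LD 16:00 and between 364 and 595 CPM at LD 04:00, and their part in these shares was not tested.

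**Figure D5:**
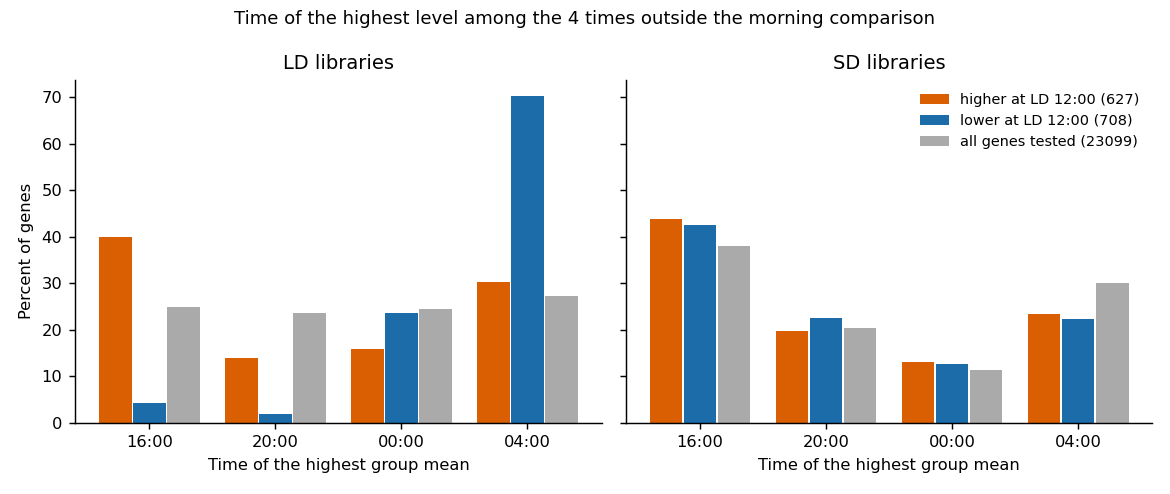
Share of genes whose highest group mean fell at each of the 4 times outside the morning comparison, in LD (left) and SD (right), for the 627 genes up-regulated and the 708 genes down-regulated at LD 12:00 and for all 23099 genes tested. The bar for down-regulated genes reaches 70.2% at LD 04:00 and 22.3% at SD 04:00.

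The interval of the same labels under SD served to ask whether the morning change depends on day length. At SD 12:00 against SD 08:00, 893 of 23153 genes were up-regulated (3.86%) and 1332 down-regulated (5.75%), together 9.61%. Of the 627 genes up-regulated in LD, 512 were tested in SD, where 78 (15.2%) were up-regulated and 30 (5.86%) down-regulated. Of the 708 genes down-regulated in LD, 655 were tested, and 53 (8.09%) were up-regulated and 39 (5.95%) down-regulated in SD, with a median of 0.38. For all LD morning genes tested in SD the shares were 3.3% and 6.0%. The SD count depended on single libraries, with 555 genes called without SD 12:00 replicate 1, 351 without SD 12:00 replicate 2, and 3887 without SD 08:00 replicate 2.

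The difference between the 2 morning changes (LD minus SD) was tested over the 8 libraries, and 4438 of 24510 genes were called (18.1%), 2303 positive (9.4%) and 2135 negative (8.71%). Without LD 08:00 replicate 1, 2576 genes were called, without SD 12:00 replicate 1, 2728, and without SD 12:00 replicate 2, 1998. The summed late pollen markers were between 1166 and 1491 CPM at LD 12:00 and between 964 and 1679 CPM at LD 08:00, but between 0.194 and 0.797 CPM at SD 12:00, where 3 of the 5 were at 0 in replicate 2, and between 26.1 and 68.5 CPM at SD 08:00. The tapetum and wall markers were between 1770 and 2028 CPM at SD 12:00 and between 1006 and 2278 CPM at SD 08:00. Day length, the makeup of the sampled anthers, and the possible 4 h offset of the LD labels cannot be told apart in this difference.

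Within the clock, *OsCCA1/OsLHY* was called lower at noon in LD but did not reach 2-fold in SD, where it had 442 and 465 CPM at SD 12:00 against 620 and 736 CPM at SD 08:00 (log2 fold change -0.57 ± 0.15, adjusted p = 0.0469), and the difference was -2.72 ± 0.25 (adjusted p = 0.00121). *OsFKF1* rose in both, to 46.5 and 45.6 CPM at SD 12:00 against 7.76 and 6.81 CPM at SD 08:00 (2.67 ± 0.14), with a difference of 2.19 ± 0.37 (adjusted p = 0.00539). Both LD 08:00 libraries (2.56 and 1.67 CPM) were below both SD 08:00 libraries for this gene. The difference for *OsTOC1/OsPRR1* was 1.17 ± 0.26 (adjusted p = 0.0139).

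*OsPRR95* changed more in SD, with 274 and 249 CPM at SD 12:00 against 54.2 and 54.5 CPM at SD 08:00 (log2 fold change 2.28 ± 0.13), and the difference was -1.66 ± 0.24 (adjusted p = 0.00326). *OsCAB1R* had 699 and 722 CPM at SD 12:00 against 539 and 496 CPM at SD 08:00, and its difference was -1.44 ± 0.27 (adjusted p = 0.00806). *OsPRR73* had 355 and 336 CPM at SD 12:00 against 131 and 126 CPM at SD 08:00 (1.44 ± 0.13), and its difference of -0.97 ± 0.21 was below the fold threshold (adjusted p = 0.0131). *OsGI* had 542 and 515 CPM at SD 12:00 against 127 and 122 CPM at SD 08:00 (2.1 ± 0.13). For *OsGI* the difference was -0.11 ± 0.22 (adjusted p = 0.748), which does not show that the changes are equal.

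Of the 12 annotated genes most up-regulated in LD, 11 had a called difference of the same sign, and so did 11 of the 12 most down-regulated. *OsTPP7* had 4.31 and 6.03 CPM at SD 12:00 against 2.51 and 2.20 CPM at SD 08:00, and its difference was 3.66 ± 0.64 (adjusted p = 0.00648). *D11* had 18.3 and 15.6 CPM at SD 12:00 against 9.84 and 16.2 CPM at SD 08:00, and its difference was -2.74 ± 0.39 (adjusted p = 0.00327). Since the LD libraries that chose these genes also enter the difference, its sign was partly set by that choice. Of the lists with low medians in LD, some had a median above 0 in SD, such as the lipid transfer protein list (-0.69 in LD against 0.48 in SD) and the potassium list (-0.55 in LD against 0.48 in SD). Others were below 0 in both, namely the gibberellin (-0.67 in LD against -0.19 in SD), anther (-0.56 in LD against -0.40 in SD), and *Aux/IAA* and *SAUR* lists (-0.55 in LD against -0.16 in SD).

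Most of the genes with the most extreme differences were not called in LD. The pollen allergen gene LOC_Os09g24020 had 426 and 557 CPM at LD 12:00 and 269 and 587 CPM at LD 08:00, but 0 and 0 CPM at SD 12:00 and 5.21 and 1.77 CPM at SD 08:00 (adjusted p of the difference 0.00769). LOC_Os06g44660, a fasciclin-like arabinogalactan protein gene, had 396 and 455 CPM at LD 12:00, 267 and 360 CPM at LD 08:00, 0.281 and 0 CPM at SD 12:00, and 84.3 and 26.3 CPM at SD 08:00 (adjusted p = 0.00173). In the opposite direction, the endoglucanase gene LOC_Os08g29770 had 129 and 93.0 CPM at LD 12:00 against 284 and 248 CPM at LD 08:00, and 2635 and 2707 CPM at SD 12:00 against 465 and 563 CPM at SD 08:00, with a difference of -3.68 ± 0.31 (adjusted p = 0.00107). The near absence of late pollen markers at SD 12:00, given above, moves with the first 2 of these genes, and its part in them was not tested.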

How the data were processed

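Anther RNA was sequenced on an Ion Proton instrument in 24 libraries. Per the paper's methods, the authors removed reads with many low-quality bases and used MapSplice to align the rest, with the Nipponbare genome of MSU, in the release that they link to, as reference. The counting tool, strand use, and multi-mapping are not given in the sources used here. They deposited raw read counts per locus, which were used as deposited. Totals ranged from 18043740 to 27529649 counts per library. The deposited table names each library by photoperiod, time, and replicate, and 0 columns of other samples were found. The totals of the LD columns do not follow the mapped read numbers listed by the study for the same labels. They follow those listed for the same replicate at the LD time 4 h earlier. Depth thus shows that the labellings differ by 4 h in LD, but not which is right. The LD labels were used as deposited.

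The edgeR 4.0.16 quasi-likelihood test (R 4.3.3) was run on the libraries of the groups compared, with filterByExpr and TMM. A gene was called where its adjusted p (Benjamini-Hochberg, over all genes tested) was below 0.05 and it changed 2-fold or more. The SE is that implied by the test. With 2 biological replicates a group, p-values weigh the difference between groups against the spread between replicates. That spread was estimated for each gene with information from all genes tested. Counts were also simulated for 22822 genes, with the same relative spread for every gene and changes placed only in well-counted genes. By adjusted p alone, all 4-fold and 45% of 2-fold changes were recovered, with 1 false call. Spread that differs between genes, and the divergence of the LD 12:00 replicates, were not simulated, so these rates need not hold for the real calls.

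Locus names came from the supplementary sheets of the study and covered 4292 of 55986 loci, and 0 loci matched the RefSeq table. Named genes were the 12 rhythm genes, the 12 highest and 12 lowest called changes among described genes with at least 10 CPM in the higher group, up to 4 called members per list with at least 5 CPM, genes that the study names, the 5 highest and 5 lowest differences between photoperiods, and the 5 most abundant called genes in each direction. The members, lists, and tests were chosen with earlier results of these data known. Alternatives were RLE size factors, library totals, other filters, DESeq2 1.42.0, wider fits, a replicate block, a test against 2-fold, and leaving out each library. A fit of the 23 libraries other than LD 12:00 replicate 2, and the lists without that library or with other scaling, were chosen after seeing the data. Figures were drawn with matplotlib 3.10.9.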

Additional observations from a re-analysis of the deposited data

Results flagged for a closer look

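The following genes stood out because the morning change differed between photoperiods by the test of the difference (LD minus SD, log2, edgeR with Benjamini-Hochberg adjustment). In the clock these were *OsFKF1* (2.19), *OsTOC1/OsPRR1* (1.17), *OsCCA1/OsLHY* (-2.72), *OsPRR95* (-1.66), and the light-harvesting gene *OsCAB1R* (-1.44). Among the genes most up-regulated in LD, the difference was 4.74 for the epimerase gene LOC_Os07g40986, 4.73 for the ketoacyl-CoA synthase gene LOC_Os02g11070, 4.46 for the glycosyl hydrolase gene LOC_Os06g48160, 3.66 for *OsTPP7* (LOC_Os09g20390), 3.60 for LOC_Os02g37300, 2.67 for the glycerol-3-phosphate dehydrogenase gene LOC_Os05g41590, 2.62 for LOC_Os03g05750, 1.86 for LOC_Os06g14490, and 1.81 for the exo70 gene LOC_Os01g67820. The MATE gene LOC_Os04g48290, at or under 3 counts in an SD group, had an adjusted p of 0.0281.

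Among the genes most down-regulated in LD, the difference was -3.48 for the MATE gene LOC_Os03g62270, -3.09 for the kinase gene LOC_Os03g28300, -2.74 for *D11* (LOC_Os04g39430), -2.66 and -1.85 for the O-methyltransferase genes LOC_Os10g02840 and LOC_Os10g02880, -2.51 for the MYB gene LOC_Os11g45740, -2.49 for *OsAld-Y* (LOC_Os06g40640), -2.38 for LOC_Os03g22490, -1.85 for *Os5bglu19* (LOC_Os05g30250), and -1.76 for the fructose-1,6-bisphosphatase gene LOC_Os04g16680. The LD libraries that chose these genes also enter the difference.

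The largest positive differences by rule were those of the fasciclin-like gene LOC_Os06g44660 (8.95) and of LOC_Os09g24020, LOC_Os10g05088, LOC_Os03g17030, and LOC_Os04g39590, which had a group at or under 3 counts and adjusted p of 0.00769, 0.00171, 0.00256, and 0.00676. The negative ones were LOC_Os01g37000 (adjusted p 0.0175), the terpene synthase gene LOC_Os04g27670 (-6.54), the oligopeptide transporter gene LOC_Os08g23130 (-5.48), the trypsin inhibitor gene LOC_Os01g03390 (-4.87), and the endoglucanase gene LOC_Os08g29770 (-3.68). The summed late pollen markers, at 0.797 CPM or below at SD 12:00 and 26.1 CPM or above at SD 08:00, moved in the same direction as the SD change of the first 5 of these genes and in the opposite direction to that of the last 5, and their part in it was not tested.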

How the results depend on the processing

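Of the 71 named genes called at LD 12:00 against LD 08:00, all kept direction and call with RLE size factors, library totals, either expression filter, DESeq2, and the replicate block. With all 24 libraries in 1 fit 12 lost the call, with the 12 LD libraries 9, and in the test against 2-fold 46. Leaving out 1 library removed 40 (LD 08:00 replicate 1), 41 (LD 08:00 replicate 2), 3 (LD 12:00 replicate 1), and 6 (LD 12:00 replicate 2) of the calls, and the 23 other libraries in 1 fit, added after seeing the data, 26. No named gene reversed. The 1335 calls became 2126 with every gene of at least 1 count (1030 higher, 1096 lower), 243 in the test against 2-fold (178 higher, 65 lower), and 1125 lower with library totals. Without 1 library they ranged from 272 to 2051 (122 to 1012 higher, 150 to 1039 lower). The 2225 SD calls became 4248 with no fold threshold and 504 in the test against 2-fold, and ranged from 351 to 3887 without 1 library. The 4438 calls of the difference between photoperiods ranged from 1998 to 4956. The 492 calls at LD 16:00 against LD 04:00 became 800 with every gene of at least 1 count, 1027 in DESeq2, and 1051 with all 24 libraries in 1 fit, and ranged from 0 to 2045. The cause was not tested, beyond the smaller number of libraries. The correlation of the deviations of same-numbered replicates was 0.0324 between LD 12:00 and LD 08:00, 0.0921 between SD 12:00 and SD 08:00, and 0.231 between LD 16:00 and LD 04:00. It ranged from 0.151 to 0.642 among LD groups other than 12:00. The labels do not say what a number shares, and with 2 libraries a group the numbers were not taken as pairs. With a replicate block 1828, 2530, 4065, and 696 genes were called in the 4 comparisons. Genes with few counts were limited by depth.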
